A study of Mus musculus with 5 samples.

Results

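The spliceosome is the RNA and protein machine that removes introns from pre-messenger RNA, and its components were followed here in RAW264.7 cells, an established mouse macrophage-like line. A gene was taken as a component when the pathway annotation in the authors' deposited table listed it under exactly that term, with heat shock genes whose symbols start with Hspa left out. Of 129 annotated genes, 5 were Hspa genes. Of the 124 left, 3 had fewer than 50 estimated counts over the 5 libraries and 121 were kept, out of 21878 gene symbols in the table. The 3 genes left out were listed at or close to 0 (Gm4340, Gm8994 and Rbmxl2), while the smallest totals inside the limit were 384 counts for Alyref2, 1034 for Ppil1 and 1052 for Lsm7. All 121 passed the low-count filter of the test.

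RNA sequencing was deposited for 1 library of cells with vector, 2 libraries of cells with LPS at 0.5 mg/mL, and 2 of cells with LPS at 0.5 mg/mL and arctigenin at 1 μM, with doses as labelled. LPS, a lipid of the outer wall of Gram-negative bacteria, triggers the inflammatory programme of macrophages, and arctigenin is a plant lignan. The labels give no exposure time, do not say what the vector held, and describe no arctigenin-only group. Neither do they say that the replicates were separate cultures, so p-values measure the spread between these samples, which may be technical. All cells came from a single line. In such bulk samples, fewer cells of a type and less RNA per cell cannot be told apart.

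As background, the spliceosome is assembled anew on each intron from small nuclear ribonucleoproteins (snRNPs), particles of a small nuclear RNA and a set of proteins. The U1 snRNP pairs with the start of the intron, the U2 snRNP with the branch site near its end, and the tri-snRNP of U4, U6 and U5 then joins, after which helicases rearrange the complex for catalysis. SR proteins and hnRNP proteins bind the transcript and steer which splice sites are used. Many SR protein genes also carry conserved exons that, when included, mark their own messenger RNA for decay.

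Library totals lay between 19836148 and 21578285 estimated counts. All 8 macrophage markers were measured, with summed levels of 8214 CPM (estimated counts scaled to a common library size with TMM factors) in vector, 6001 and 5855 in LPS, and 7271 and 6621 in LPS with arctigenin. With LPS 4 of these 8 rose and 2 fell (median log2 fold change 0.17), so the sum and the median differ in sign: Lyz2 and Csf1r fell (-1.36 and -2.20), while Itgam rose (1.17). Of 10 markers of other cell types, 4 were at 0 in all libraries, and the summed level of the list ran from 0.56 to 2.82 CPM. A list of 16 proliferation markers moved with the comparisons below. Its summed level was 1465 CPM in vector, 751 and 776 in LPS, and 2034 and 1881 in LPS with arctigenin. With LPS all 16 fell, against vector, and with LPS and arctigenin all 16 rose against LPS. The part of this shift in the spliceosome results was not tested.

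Across the 121 components, most that were called fell with LPS and most that were called rose when arctigenin was added. Their summed level was 16892 CPM in vector, 13428 and 13943 in LPS (13685 ± 364, SD, n = 2), and 17839 and 17148 in LPS with arctigenin (17494 ± 489, SD, n = 2). The LPS libraries were below the other 3, and the vector library lay just under both libraries with arctigenin. The order of vector and arctigenin rests on scaling, since the components took 1.965% of all counts in vector, 1.318% and 1.355% in LPS, and 1.679% and 1.64% in LPS with arctigenin.

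For LPS against vector, 72 components were lower and 11 higher at an adjusted p under 0.05, and 38 were not called. Of all 11575 genes tested, 24.9% were lower and 27.1% higher. The median log2 fold change was -0.32 over the components and -0.01 over all genes. For LPS with arctigenin against LPS, 78 components were higher and 6 lower, against 22.8% and 22% of all genes, and the medians were 0.36 and -0.00. For LPS with arctigenin against vector, 40 were higher and 32 lower, against 30.4% and 25.7% of all genes, with medians of 0.02 and 0.03. The 3 comparisons share libraries, so they are not independent of each other. The LPS libraries enter the first and the second, and the vector library the first and the third. The libraries with arctigenin enter the second and the third.

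Both comparisons with vector depend on how the libraries are scaled, while the comparison within LPS does so less. Scaling by library totals moved the median of all genes by -0.25 for LPS against vector and left 3 components higher and 96 lower, against 17.4% and 39.7% of all genes. The same scaling moved it by -0.29 for LPS with arctigenin against vector, with 19 higher and 62 lower, against 18.5% and 41% of all genes. Upper quartile scaling moved these medians by -0.16 and -0.17, with 3 higher and 86 lower (20.4% and 33.7% of all genes), and 25 higher and 44 lower (22.8% and 33.7%). Within LPS, the shift for arctigenin was -0.04 with library totals, with 72 higher and 8 lower, against 20.1% and 24.3% of all genes, and upper quartile scaling gave 75 higher and 7 lower, against 22.1% and 22.4%. Calls that held in all 13 alternatives numbered 44 of 83 for LPS against vector (42 of them lower), 54 of 84 for LPS with arctigenin against LPS (52 higher), and 37 of 72 for LPS with arctigenin against vector (17 higher and 20 lower). The matching counts over all genes were not worked out, so these cannot be set against the calls of other genes.

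**Figure D1:**
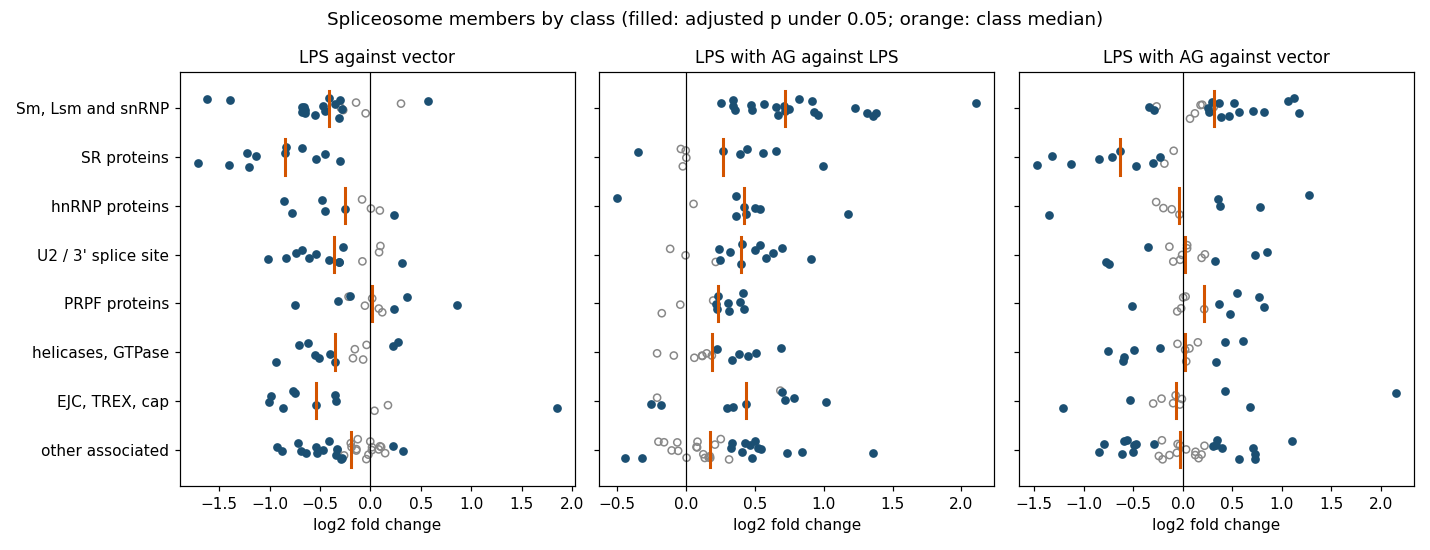
Log2 fold change (x axis) of each of the 121 spliceosome components by class (y axis) in the 3 comparisons, where AG is arctigenin. Points are genes, filled where the adjusted p was under 0.05, and orange bars are class medians: for LPS against vector all 11 SR protein genes lie below 0, and for LPS with AG against LPS all 21 genes of the Sm, Lsm and snRNP class lie above 0.

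Class counts are to be read beside the shares of all genes. These were 27.1% higher and 24.9% lower with LPS, and 22.8% and 22% with arctigenin over LPS. For LPS with arctigenin against vector they were 30.4% and 25.7%, or 18.5% and 41% under library totals. The class whose 21 genes encode Sm and Lsm proteins and snRNP proteins had its called genes mostly lower with LPS and higher once arctigenin was present. Sm proteins form the ring around the U1, U2, U4 and U5 RNAs, and Lsm proteins the ring around U6. With LPS 15 of the 21 fell and 1 rose (median -0.41). The count of fallen genes was 10 with curated transcripts only, 12 with DESeq2 and 19 under library totals. With arctigenin added to LPS all 21 rose (median 0.72), a count that ran from 18 to 21 over the 13 alternatives. Against vector, LPS with arctigenin left 13 higher and 2 lower (median 0.31), and this count of higher genes ran from 4 to 13, with 4 higher and 3 lower under library totals. Those 2 lower became 0 without LPS replicate 1 or LPS replicate 2, and 1 without either arctigenin replicate. The summed level of the class was 1490 CPM in vector, 1124 and 1185 in LPS, and 1987 and 1837 in LPS with arctigenin.

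Lsm6, a member of the U6 ring, stood at 27.4 CPM in vector, 11.6 and 9.19 in LPS, and 49.4 and 40.3 in LPS with arctigenin. Its LPS libraries were the lowest of the 5 and both arctigenin libraries lay above vector. It fell with LPS (log2 fold change with its SE, -1.40 ± 0.17, adjusted p = 0.000114) and rose with arctigenin (2.11 ± 0.15, adjusted p = 7.09e-06). Lsm2, another ring subunit, was at 23.0 CPM in vector, 8.19 and 6.73 in LPS, and 20.4 and 17.9 in LPS with arctigenin. It fell with LPS (-1.62 ± 0.17, adjusted p = 2.87e-05) and rose with arctigenin (1.36 ± 0.15, adjusted p = 7.39e-05), and the arctigenin libraries did not pass the test against vector (-0.26 ± 0.17, adjusted p = 0.196). Lsm3, also of the ring, had a different order, at 18.7 CPM in vector, 17.1 and 16.9 in LPS, and 43.2 and 41.4 in LPS with arctigenin. Here LPS and vector lay close together (-0.14 ± 0.12, adjusted p = 0.359), and both arctigenin libraries stood apart above them (1.32 ± 0.10, adjusted p = 7.01e-06).

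Snrpd1, a core Sm protein, was at 93.8 CPM in vector, 75.9 and 75.3 in LPS, and 209 and 184 in LPS with arctigenin. The libraries of the 3 groups did not overlap, and the rise with arctigenin over LPS (1.38 ± 0.08, adjusted p = 1.53e-06) exceeded the fall with LPS (-0.31 ± 0.09, adjusted p = 0.0163), whose call was lost without LPS replicate 1 and without LPS replicate 2. Snrpd2, which pairs with Snrpd1 in the ring, was at 22.2 CPM in vector, 27.4 and 27.4 in LPS, and 50.9 and 46.0 in LPS with arctigenin, with arctigenin again above LPS (0.82 ± 0.10, adjusted p = 0.000101). Snrpb, the Sm protein B gene, was at 96.2 CPM in vector, 60.8 and 59.3 in LPS, and 83.4 and 68.7 in LPS with arctigenin. Its level dropped with LPS (-0.68 ± 0.11, adjusted p = 0.000691) and rose with arctigenin (0.34 ± 0.10, adjusted p = 0.0163), with that second call lost when either LPS replicate or LPS with arctigenin replicate 1 was left out. Snrnp27, a tri-snRNP protein, was the 1 gene of the class that rose with LPS (0.57 ± 0.11, adjusted p = 0.00153), at 43.1 CPM in vector, 59.5 and 68.4 in LPS, and 76.9 and 75.4 in LPS with arctigenin. Snrpe and Snrpg have near-identical copies elsewhere in the genome, so their values are uncertain.

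The genes of this class were short, with a median transcript length of 861 bases against 1711 over the components and 2258.5 over all genes tested. After correcting for length and GC, 19 of the 21 were higher with arctigenin than with LPS, with a median of 0.57.

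SR proteins are splicing activators with an RNA recognition domain and a tail of arginine and serine repeats. All 11 genes of the class fell with LPS (median -0.85), and 9 to 11 did so over the alternatives. With arctigenin over LPS 6 were higher and 1 lower (median 0.27), or 4 and 0 with curated transcripts only. Against vector, 9 of the 11 stayed lower with arctigenin present and none was higher (median -0.64). That count of lower genes was 7 with curated transcripts only and 11 under library totals. In summed level the class was at 2407 CPM in vector, 1202 and 1252 in LPS, and 1445 and 1459 in LPS with arctigenin.

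**Figure D2:**
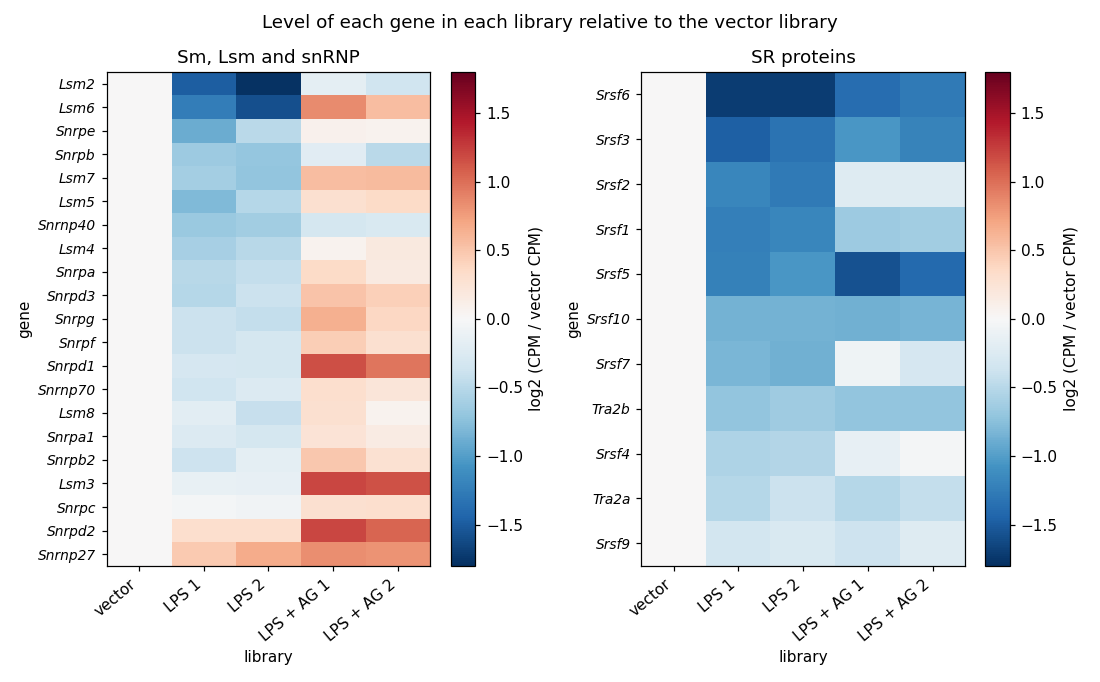
Level of each Sm, Lsm and snRNP gene (left) and each SR protein gene (right), as log2 of its CPM over the vector CPM (colour), in the 5 libraries (x axis), with genes (y axis) ordered by their LPS level and AG for arctigenin. For LPS with AG against vector, 13 of the 21 genes on the left were called higher and 2 lower, or 4 and 3 under library totals. No SR protein gene had a call above vector and 9 of 11 had one below it.

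Srsf6 showed the steepest fall of the class by fitted value, at 224 CPM in vector, 68.4 and 68.7 in LPS, and 86.9 and 93.0 in LPS with arctigenin. All 4 treated libraries lay far below vector, the LPS libraries lowest (-1.71 ± 0.08, adjusted p = 1.05e-07), and the rise with arctigenin was the smaller step (0.39 ± 0.07, adjusted p = 0.00111). Srsf3, the smallest SR protein, was at 214 CPM in vector, 77.5 and 85.2 in LPS, and 103 and 93.1 in LPS with arctigenin. The gene was lower with LPS (-1.40 ± 0.09, adjusted p = 9.74e-07) and stayed below vector with arctigenin (-1.13 ± 0.09, adjusted p = 3.51e-06). Srsf2, which binds exonic enhancers, followed another course, at 219 CPM in vector, 97.1 and 90.7 in LPS, and 187 and 187 in LPS with arctigenin. After falling with LPS (-1.22 ± 0.07, adjusted p = 6.41e-07) it rose with arctigenin (0.99 ± 0.06, adjusted p = 3.09e-06), to levels nearer to vector than to LPS.

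Srsf1, the founding member of the family, was at 347 CPM in vector, 147 and 154 in LPS, and 220.5 and 225 in LPS with arctigenin, with arctigenin between the other groups (-1.20 ± 0.07, adjusted p = 5.21e-07 for LPS against vector and 0.56 ± 0.06, adjusted p = 5.71e-05 for arctigenin over LPS). Srsf5, an SR protein of the same kind, was at 312 CPM in vector, 134 and 151 in LPS, and 106 and 118 in LPS with arctigenin. It was the only SR gene called lower with arctigenin over LPS (-0.35 ± 0.08, adjusted p = 0.00572), a call lost without LPS replicate 2, and its arctigenin libraries were the lowest of the 5. Srsf10, a relative that acts as a repressor until it is phosphorylated, stood at 226 CPM in vector, 125 and 126 in LPS, and 124 and 127 in LPS with arctigenin. A fall with LPS was called (-0.85 ± 0.07, adjusted p = 5.32e-06), and the arctigenin and LPS libraries overlapped. Tra2b, a sequence-specific activator, fell with LPS too (-0.68 ± 0.07, adjusted p = 2.79e-05), at 440.0 CPM in vector, 268 and 283 in LPS, and 269 and 268 in LPS with arctigenin, again with overlap between LPS and arctigenin. Srsf7 was at 146 CPM in vector, 82.2 and 80.3 in LPS, and 138 and 118 in LPS with arctigenin, lower with LPS (-0.84 ± 0.10, adjusted p = 5.35e-05) and higher with arctigenin (0.66 ± 0.08, adjusted p = 0.000162).

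Promoter sequences of the 3 SR genes with the largest fall on LPS, and of 3 Sm and Lsm class genes that rose with arctigenin over LPS (Lsm6, Lsm3 and Lsm5, with log2 fold changes of 2.11, 1.32 and 0.96), are shown so that the letters of both classes can be read beside their values. Only genes with a single promoter entry were taken. The Lsm genes shown were not the largest rises of their class, since Snrpd1 and Lsm2 rose more than Lsm3 and Lsm5. Each run holds the 120 bases before the annotated start, read 5′ to 3′ on the gene's strand. The source was RefSeq on GRCm38.p6, which had an entry for 94 of the 121 components. The windows are chr2:162931388-162931507 (+) for Srsf6, chr17:29032540-29032659 (+) for Srsf3, chr11:116853095-116853214 (-) for Srsf2, chr8:78821153-78821272 (-) for Lsm6, chr6:91515915-91516034 (+) for Lsm3 and chr6:56704700-56704819 (-) for Lsm5. Capitals mark letters matching any of the motifs searched, on either strand.
Srsf6: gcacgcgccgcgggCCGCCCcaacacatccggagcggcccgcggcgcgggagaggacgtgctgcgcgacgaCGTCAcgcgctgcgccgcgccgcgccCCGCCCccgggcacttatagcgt
Srsf3: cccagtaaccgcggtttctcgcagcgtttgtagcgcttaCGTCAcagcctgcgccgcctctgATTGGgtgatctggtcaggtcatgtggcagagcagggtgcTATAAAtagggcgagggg
Srsf2: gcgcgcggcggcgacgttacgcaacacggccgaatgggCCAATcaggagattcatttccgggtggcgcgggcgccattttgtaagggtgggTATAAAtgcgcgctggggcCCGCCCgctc
Lsm6: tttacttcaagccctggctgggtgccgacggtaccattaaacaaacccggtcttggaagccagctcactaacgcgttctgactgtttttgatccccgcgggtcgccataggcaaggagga
Lsm3: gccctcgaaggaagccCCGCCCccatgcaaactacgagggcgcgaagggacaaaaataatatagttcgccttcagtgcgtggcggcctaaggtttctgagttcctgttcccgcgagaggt
Lsm5: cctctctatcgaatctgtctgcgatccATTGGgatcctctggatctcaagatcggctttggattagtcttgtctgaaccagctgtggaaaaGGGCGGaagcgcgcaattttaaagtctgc
In these windows Srsf3 and Srsf2 held a TATAAA and Srsf6, Lsm3, Lsm6 and Lsm5 did not. The windows do not stand for their classes. Over 250 bases TATAAA was in 2 of 11 SR genes and 1 of 17 Sm and Lsm class genes with an entry. CCAAT was in 4 of those 11 and 5 of those 17. In the windows, Srsf3 and Srsf2 also held CCAAT or its reverse complement, as did Lsm5.

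In all, 12 motifs were searched on both strands over the 250 bases before the start, and they were chosen after some of these sequences had been read. A match is a description of letters and not a site. The ETS family core CCGGAAG was in 37.2% of the 94 components with an entry, against 16.5% of tested genes and 7.83% of all genes with an entry. By class it was in 6 of 9 U2 and 3′ splice site genes, 4 of 7 exon junction, TREX and cap binding genes, 5 of 10 helicase and GTPase genes, 9 of 22 other associated genes, 5 of 17 Sm and Lsm class genes, 3 of 11 SR genes, 2 of 9 PRPF genes and 1 of 9 hnRNP genes. Shares of the GC box GGGCGG were 63.8% of components and 63% of tested genes, and 35.4% of all genes. The CRE half-site TGACG was in 43.6% and 31% of components and tested genes, and in 19.8% of all genes. The full CRE TGACGTCA, which contains that half-site, was in 6.38%, 3.26% and 1.77%. For CCAAT the shares were 41.5%, 41.4% and 37.5%, and for TATAAA 9.57%, 7.87% and 14.3%. The other 6 motifs were the NRF1 site GCGCATGC (6.38% of components and 5.28% of tested genes), the E-box CACGTG (8.51% and 10%), the E2F sites TTTGGCGC (3.19% and 0.97%) and TTTCCCGC (5.32% and 2.09%), the YY1 site AAGATGGC (2.13% and 2.56%) and the NF-kB site GGGACTTTC (1.06% and 0.41%). In all genes with an entry these 6 motifs were in 2.56%, 6.86%, 0.48%, 1.03%, 1.83% and 0.34%, in the same order.

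hnRNP proteins coat nascent transcripts and often repress splice sites. Of the 9 genes in this class, 5 fell and 1 rose with LPS (median -0.25), 7 rose and 1 fell with arctigenin over LPS (median 0.42), and 4 were higher and 1 lower with arctigenin than in vector (median -0.03). The last comparison gave 2 higher and 5 lower under library totals (median -0.33), 3 higher and 4 lower under upper quartile scaling (median -0.20), and 3 lower without LPS with arctigenin replicate 1. Without LPS replicate 2 the LPS counts were 3 lower and 0 higher. Hnrnpm, a regulator of exon choice, was at 487 CPM in vector, 261 and 277 in LPS, and 199.7 and 181 in LPS with arctigenin. Its level dropped with LPS (-0.85 ± 0.08, adjusted p = 1.27e-05) and again with arctigenin over LPS (-0.50 ± 0.07, adjusted p = 0.000278), so its groups were ordered from vector down to arctigenin without overlap. Pcbp1, a poly(C)-binding protein, ran the other way, at 127 CPM in vector, 139 and 133 in LPS, and 329 and 285 in LPS with arctigenin. LPS and vector lay close (0.09 ± 0.10, adjusted p = 0.439), and both arctigenin libraries were above them (1.18 ± 0.08, adjusted p = 4.57e-06).

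Hnrnpu, a scaffold protein of the nucleus, was at 734 CPM in vector, 528 and 544 in LPS, and 736 and 696 in LPS with arctigenin. With TMM scaling its arctigenin libraries lay on either side of vector. That placement depends on scaling, since the class median against vector was -0.33 under library totals. Hnrnpu fell with LPS (-0.45 ± 0.07, adjusted p = 0.000492) and rose with arctigenin over LPS (0.42 ± 0.06, adjusted p = 0.000373). Hnrnpa1, a silencer-binding repressor with many processed copies in the genome and therefore uncertain, was at 1011 CPM in vector, 836 and 862 in LPS, and 926 and 839 in LPS with arctigenin. Its small fall with LPS (-0.25 ± 0.08, adjusted p = 0.0222) was lost when either LPS replicate was left out, and the step with arctigenin was not called (0.06 ± 0.07, adjusted p = 0.521). Rbmx and its retrogene relative Rbmxl1 are also near copies, so their counts could have been divided between them.

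**Figure D3:**
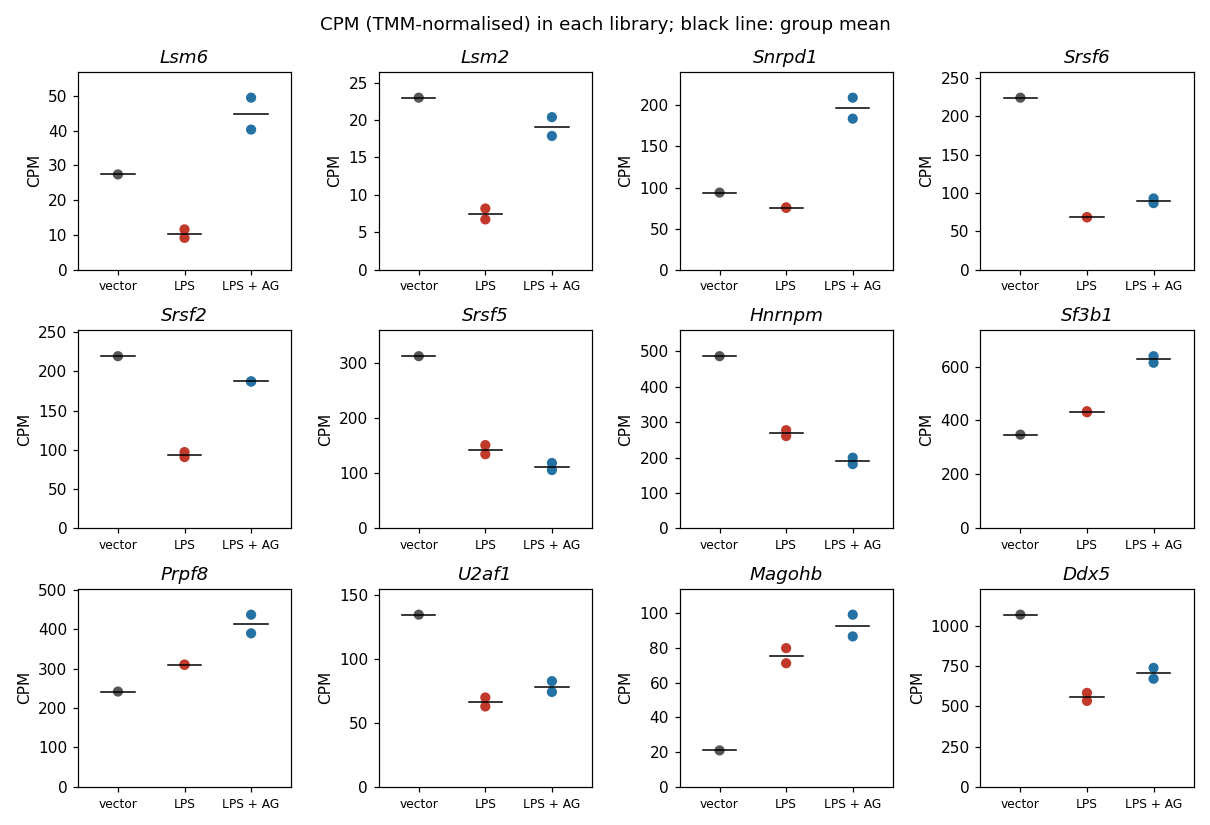
CPM scaled by TMM (y axis, from 0) of 12 spliceosome genes in the vector, LPS and LPS with arctigenin (AG) libraries (x axis). Points are libraries and lines are group means: Lsm2, Srsf6, Srsf2, Srsf5, Hnrnpm, U2af1 and Ddx5 are below vector in all 4 treated libraries, whereas Sf3b1, Prpf8 and Magohb are above it in all 4.

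Factors of the U2 snRNP and the 3′ splice site recognise the branch point and the end of the intron. Of 14 such genes, 10 fell and 1 rose with LPS (median -0.36), 11 rose and none fell with arctigenin over LPS (median 0.40), and 3 were higher and 3 lower with arctigenin than in vector (median 0.02, or -0.28 under library totals with 2 higher and 7 lower). Without LPS replicate 1 the fallen genes numbered 6 and those risen with arctigenin over LPS 7. U2af1 encodes the small subunit of U2AF, which reads the AG at the end of the intron, and was at 135 CPM in vector, 62.8 and 69.8 in LPS, and 82.6 and 74.1 in LPS with arctigenin. A drop with LPS was called (-1.02 ± 0.10, adjusted p = 1.43e-05), and it stayed below vector with arctigenin (-0.78 ± 0.10, adjusted p = 7.71e-05). The small rise over LPS (0.24 ± 0.08, adjusted p = 0.0396) was lost in 8 of the 13 alternatives, among them those without LPS replicate 1, without LPS replicate 2 and without LPS with arctigenin replicate 1. U2af2, the large subunit that binds the polypyrimidine tract, was at 169 CPM in vector, 134 and 138 in LPS, and 199 and 186 in LPS with arctigenin. Levels fell with LPS (-0.31 ± 0.08, adjusted p = 0.0063, a call lost without LPS replicate 1) and rose with arctigenin (0.50 ± 0.06, adjusted p = 0.000161).

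Sf3b1, the branch site protein of the U2 snRNP, was at 347 CPM in vector, 434 and 430.4 in LPS, and 638 and 614 in LPS with arctigenin. The libraries rose in steps from vector to LPS (0.32 ± 0.07, adjusted p = 0.00451) to arctigenin (0.53 ± 0.06, adjusted p = 6.68e-05), although the first step was 0.06 under library totals and lost its call. Its partner Sf3b2 was at 150.2 CPM in vector, 161 and 161 in LPS, and 252 and 246 in LPS with arctigenin, with LPS close to vector (0.10 ± 0.07, adjusted p = 0.27) and arctigenin above both (0.63 ± 0.06, adjusted p = 2.35e-05). Sf3a2 was at 36.9 CPM in vector, 23.1 and 21.0 in LPS, and 21.6 and 22.5 in LPS with arctigenin, lower in all 4 treated libraries (-0.74 ± 0.12, adjusted p = 0.000583 for LPS), with the arctigenin libraries among the LPS ones.

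Among 11 PRPF genes, which hold core and tri-snRNP proteins, 3 rose and 3 fell with LPS (median 0.02, or -0.23 under library totals). These counts lay near the shares of all genes, of which 27.1% rose and 24.9% fell. With arctigenin over LPS 8 rose and none fell (median 0.23), a count that ran from 2 to 8 over the alternatives. Against vector, 5 were higher and 1 lower with arctigenin (median 0.22). Under library totals these were 3 higher and 5 lower (median -0.08), against 18.5% and 41% of all genes. Without LPS replicate 1 there was 1 fallen gene with LPS and 3 risen with arctigenin over LPS, and that second count was 5 without LPS replicate 2 or LPS with arctigenin replicate 1. Prpf8, the protein at the catalytic centre, was at 242 CPM in vector, 310.2 and 311 in LPS, and 437 and 390.1 in LPS with arctigenin. It rose with arctigenin over LPS (0.41 ± 0.07, adjusted p = 0.000816) and was higher than vector (0.77 ± 0.09, adjusted p = 3.55e-05), and its rise with LPS (0.36 ± 0.08, adjusted p = 0.00537) ran down to 0.06 over the alternatives, with the call lost under library totals, under upper quartile scaling and with the length and GC correction. Prpf19, the ubiquitin ligase of the complex named after it, was at 88.0 CPM in vector, 49.6 and 55.6 in LPS, and 62.0 and 61.2 in LPS with arctigenin, with a fall on LPS (-0.74 ± 0.10, adjusted p = 0.000133). Its step with arctigenin over LPS (0.23 ± 0.08, adjusted p = 0.0492) kept its call in 2 of the 13 alternatives, and lost it whenever a replicate was left out. Prpf40b, related to a U1 snRNP protein, was at 8.40 CPM in vector, 15.8 and 14.7 in LPS, and 14.9 and 14.8 in LPS with arctigenin, higher with LPS (0.86 ± 0.17, adjusted p = 0.00188), but its value rests on predicted transcripts, since with curated transcripts alone it was -7.04 and not called.

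The helicases and the GTPase drive the rearrangements of the spliceosome. Of 13 genes, 7 fell and 2 rose with LPS (median -0.36), 6 rose and none fell with arctigenin over LPS (median 0.19), and 3 were higher and 5 lower with arctigenin than in vector (median 0.02, or -0.27 under library totals, with 1 higher and 8 lower). The 2 that rose with LPS became 0 without LPS replicate 1, without LPS replicate 2, and in 5 other alternatives including both library totals and upper quartile scaling. Ddx5, an RNA helicase that also acts as a transcriptional cofactor, was at 1069 CPM in vector, 533 and 583 in LPS, and 738 and 671 in LPS with arctigenin. All treated libraries lay below vector (-0.94 ± 0.08, adjusted p = 9.81e-06 for LPS), and the rise with arctigenin (0.34 ± 0.07, adjusted p = 0.00346) lost its call without LPS replicate 1. Eftud2, the GTPase of the U5 snRNP, was at 89.4 CPM in vector, 57.1 and 59.0 in LPS, and 93.1 and 94.2 in LPS with arctigenin, with a fall on LPS (-0.62 ± 0.08, adjusted p = 0.000151) and a rise with arctigenin (0.69 ± 0.07, adjusted p = 4.39e-05). Snrnp200, the helicase that unwinds U4 from U6, was at 119.7 CPM in vector, 137 and 143 in LPS, and 186 and 179 in LPS with arctigenin. It was higher with arctigenin than with LPS (0.38 ± 0.06, adjusted p = 0.000669), while its rise with LPS over vector (0.23 ± 0.08, adjusted p = 0.029) was lost in 7 of 13 alternatives, among them those without LPS replicate 1 and without LPS replicate 2, and was -0.03 under library totals. Dhx15, which takes the spent complex apart, was at 243 CPM in vector, 168 and 174 in LPS, and 236 and 232 in LPS with arctigenin (-0.51 ± 0.07, adjusted p = 0.000188 for LPS and 0.45 ± 0.06, adjusted p = 0.000191 for arctigenin over LPS).

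Exon junction, THO/TREX and cap binding genes link splicing to export and decay of the message. Of 11 genes, 8 fell and 1 rose with LPS (median -0.54), 7 rose and 2 fell with arctigenin over LPS (median 0.44), and 3 were higher and 2 lower with arctigenin than in vector (median -0.07). Against vector, library totals gave 2 higher and 6 lower (median -0.37). Without LPS replicate 2 the genes fallen with LPS numbered 5, and without either LPS replicate in turn no gene was called lower with arctigenin over LPS. The gene that rose with LPS was Magohb, at 21.0 CPM in vector, 71.2 and 79.9 in LPS, and 86.7 and 99.2 in LPS with arctigenin, with 1.85 ± 0.13, adjusted p = 1.96e-06, while its paralogue Magoh, the other source of the exon junction subunit, was at 51.7 CPM in vector, 40.8 and 40.9 in LPS, and 87.4 and 77.9 in LPS with arctigenin. Magoh fell with LPS (-0.34 ± 0.10, adjusted p = 0.0199), a call lost without LPS replicate 1 and without LPS replicate 2, and rose with arctigenin (1.02 ± 0.09, adjusted p = 1.39e-05). The products are near-identical, so reads shared by Magoh and Magohb could have been divided between them. Rbm8a, their binding partner, was at 215 CPM in vector, 184 and 153 in LPS, and 292 and 287 in LPS with arctigenin and rose with arctigenin (0.78 ± 0.09, adjusted p = 0.000115). Thoc1, of the THO complex that couples transcription to export, was at 101 CPM in vector, 48.9 and 52.2 in LPS, and 39.1 and 48.5 in LPS with arctigenin. It fell with LPS (-1.002 ± 0.12, adjusted p = 9.54e-05) and was not called for arctigenin over LPS (-0.21 ± 0.11, adjusted p = 0.143). Alyref, the export adaptor, was at 106 CPM in vector, 62.7 and 63.2 in LPS, and 101 and 106 in LPS with arctigenin, lower with LPS (-0.75 ± 0.08, adjusted p = 3.87e-05) and higher with arctigenin (0.72 ± 0.07, adjusted p = 3.27e-05), and shares sequence with its copy Alyref2.

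Of the remaining 31 associated proteins, 13 fell with LPS and 2 rose (median -0.19), with arctigenin over LPS 12 rose and 2 fell (median 0.18), and against vector 9 were higher and 9 lower (median -0.03). That last split lay near the shares of all genes (30.4% higher and 25.7% lower). Under library totals it was 5 higher and 17 lower (median -0.32), against 18.5% and 41% of all genes. Upper quartile scaling gave 6 and 13, against 22.8% and 33.7%. With LPS, library totals gave 0 higher and 24 lower, leaving out LPS replicate 1 gave 0 and 8, and leaving out LPS replicate 2 gave 0 higher. Ppih, a cyclophilin of the tri-snRNP, was at 21.5 CPM in vector, 18.0 and 18.0 in LPS, and 45.1 and 47.1 in LPS with arctigenin, with LPS near vector (-0.26 ± 0.12, adjusted p = 0.0904) and arctigenin far above both (1.36 ± 0.10, adjusted p = 5.16e-06). Txnl4a, a small U5 protein, fell in both steps, at 111 CPM in vector, 84.9 and 82.3 in LPS, and 66.8 and 56.6 in LPS with arctigenin (-0.41 ± 0.10, adjusted p = 0.00715 for LPS, a call lost without LPS replicate 2, and -0.44 ± 0.09, adjusted p = 0.0027 for arctigenin over LPS).

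The deposited values are per RefSeq transcript, which lets the make-up of a gene's counts be followed, with the caution that the division of reads between isoforms is the authors' estimate. Of 326 transcripts of the components tested, 34 were called for LPS against vector (7 higher and 27 lower), 13 for LPS with arctigenin against LPS (all higher) and 41 for LPS with arctigenin against vector (20 higher and 21 lower). Over all 35464 transcripts the called shares were 5.09%, 1.19% and 6.98%. These counts were fragile. Leaving out any 1 of the LPS or arctigenin libraries gave 0 calls for LPS with arctigenin against LPS. Without LPS replicate 1, and likewise without LPS replicate 2, LPS against vector had 0 calls, and arctigenin with LPS against vector had 3. At an unadjusted p under 0.05 the fits with 0 calls held 78 to 96 transcripts of the components for arctigenin over LPS (11.6% to 15.4% of all transcripts), and 86 and 92 for LPS over vector (16.2% and 15.9%). At an unadjusted p under 0.05 the counts with all libraries were 106, 108 and 109, against 19.9%, 16% and 22.6% of all transcripts, and no other tool was run on transcripts. With the replicate number as a block these became 101, 97 and 96, against 17.3%, 13.5% and 19.7%.

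In a few genes chosen after their values were seen, isoforms of the same gene moved apart. In Srsf1, the curated transcript NM_001078167.2 took 14.9% of the gene's counts in vector, 39.5% and 41.4% in LPS and 55.8% and 59.5% in LPS with arctigenin. The other one, NM_173374.4, had a log2 fold change of -1.78 ± 0.08 (SE, adjusted p = 0.00363) for LPS against vector. In that comparison NM_001078167.2 moved little, at 53.9 CPM in vector and 58.0 and 63.4 in LPS. For LPS with arctigenin against vector NM_001078167.2 had a log2 fold change of 1.23 ± 0.12 (SE, adjusted p = 0.0142). In Srsf5, NM_001079695.1 took 11.2% in vector, 47.2% and 42% in LPS, and 47.2% and 47.3% in LPS with arctigenin. NM_001079694.1 of Srsf5 fell with LPS (-1.86 ± 0.16, log2, SE, adjusted p = 0.0121). Transcripts called in both directions were found in Dhx15 and Tra2a for LPS against vector. For LPS with arctigenin against vector they were found in Srsf1, Tra2a and U2surp, and Srsf5 was in neither set.

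Tra2a, Dhx15 and U2surp showed the same kind of split. In Tra2a the predicted transcript XM_011241102.1 took 5.04% in vector, 31% and 35.3% in LPS, and 30.3% and 28.8% in LPS with arctigenin. Its log2 fold change for LPS against vector was 2.20 ± 0.24 (SE, adjusted p = 0.0203), against -1.22 ± 0.12 (SE, adjusted p = 0.0161) for NM_198102.2 of Tra2a. In Dhx15, NM_001042620.2 took 0.89% in vector, 11.2% and 11.6% in LPS, and 10.2% and 16.9% in LPS with arctigenin. In U2surp the predicted transcript XM_017313543.1 took 7.95% in vector, 23.8% and 27.2% in LPS, and 33.4% and 35.3% in LPS with arctigenin, although U2surp as a gene was called in none of the 3 comparisons. In all 5 of these genes the vector share lay below all 4 treated libraries, but the transcripts were picked with their shares known. That pattern follows from the choice, was not counted over all transcripts, and rests on 1 vector library. Every one of the isoform calls for LPS against vector was lost when either LPS replicate was left out.

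**Figure D4:**
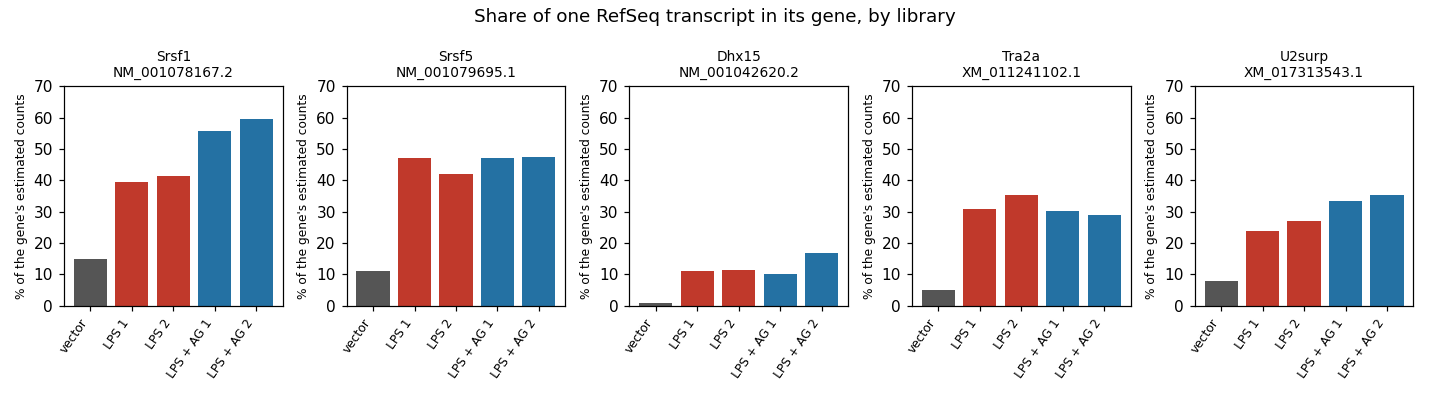
Share of one RefSeq transcript in its gene's estimated counts (y axis, percent) in each library (x axis, AG for arctigenin) for Srsf1, Srsf5, Dhx15, Tra2a and U2surp. Bars are single libraries with no error bar, and the transcripts were chosen after their shares were seen. By that choice the vector bar is the lowest in all 5 panels, for example 14.9% for Srsf1 against 39.5% to 59.5% in the treated libraries.

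Other genes of RNA splicing were read from lists outside the annotated pathway. These came from the main fit only, so their counts were not checked under other scaling. Of all 11575 genes tested, 27.1% rose and 24.9% fell with LPS, and 22.8% rose and 22% fell with arctigenin over LPS. For LPS with arctigenin against vector the shares were 30.4% and 25.7%. With LPS, the counts of the kinase, minor spliceosome and decay lists lay near the shares of all genes. Of 15 genes of the SMN complex, which loads Sm proteins onto small nuclear RNA, and of Sm protein methylation, 12 fell and none rose with LPS, 7 rose and none fell with arctigenin over LPS, and 5 were below vector with arctigenin. Wdr77, the partner of the Sm methylase, fell with LPS by a log2 fold change of -1.32 ± 0.09 (SE, adjusted p = 1.43e-06). It was at 119 CPM in vector, 47.6 and 47.7 in LPS, and 50.2 and 47.2 in LPS with arctigenin, so arctigenin and LPS overlapped. Of 9 SR protein kinases and phosphatases, 2 rose and 3 fell with LPS, and 4 rose and 2 fell with arctigenin over LPS. Srpk2, a kinase of SR proteins, was at 78.9 CPM in vector, 74.5 and 81.9 in LPS, and 48.1 and 49 in LPS with arctigenin, with a log2 fold change of -0.69 ± 0.08 (SE, adjusted p = 0.000105) for arctigenin over LPS. Clk1, a kinase of the same proteins in the nucleus, was lower too (-0.45 ± 0.07, log2, SE, adjusted p = 0.000496). More genes of this list rose than fell in that comparison. Prpf4b, for example, was at 119 CPM in vector, 107 and 115 in LPS, and 154 and 151 in LPS with arctigenin.

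Of 31 tested regulators of alternative splicing outside the pathway, 11 rose and 10 fell with LPS, 18 rose and 2 fell with arctigenin over LPS, and 18 were above and 6 below vector with arctigenin. Rbfox2, which binds near regulated exons, rose with LPS (1.85 ± 0.13, log2, SE, adjusted p = 1.98e-06), Mbnl1, a regulator active in differentiated cells, fell (-1.07 ± 0.08, log2, SE, adjusted p = 3.2e-06), and Ptbp3, a polypyrimidine tract binding protein, rose (0.86 ± 0.07, log2, SE, adjusted p = 6.84e-06). With arctigenin over LPS, Hnrnpab rose by 0.91 ± 0.07 (log2, SE, adjusted p = 9.08e-06) and Hnrnpd by 0.77 ± 0.07 (log2, SE, adjusted p = 1.68e-05). In the minor spliceosome, which removes a rare class of introns, 2 of 13 genes rose and 3 fell with LPS, and 5 rose and 3 fell with arctigenin over LPS. Among 19 genes of small nuclear RNA transcription and 3′ processing these counts were 2 and 7, then 5 and 2. In nonsense-mediated decay, the pathway that removes messages with early stops, 3 of 10 genes rose and 3 fell with LPS, and 4 rose and 2 fell with arctigenin over LPS. Smg1, its kinase, rose with LPS by 0.92 ± 0.07 (log2, SE, adjusted p = 4.95e-06).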

How the data were processed

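RNA sequencing of 5 libraries was read from 1 table of estimated counts (expected counts that need not be whole) per RefSeq transcript, as deposited by the authors. Per the submitters' processing notes, the tools were DESeq, HTSeq, Cufflinks, HISAT2 and Trimmomatic, and the genome was mm9. Neither the program that gave decimal values nor the use of strand is given in the sources used here. Overlapping or antisense genes can thus not be separated. The values of each symbol's transcripts were added up and rounded to whole counts. edgeR 4.0.16 in R 4.3.3 fitted all 5 libraries with group as the only term (TMM factors 0.942 to 1.16, filterByExpr minimum count 10 and minimum total 15, robust quasi-likelihood test, Benjamini-Hochberg adjustment over 11575 genes, called under 0.05). The residual degrees of freedom were 2, and the biological coefficient of variation was 7.13%. Vector has 1 library, which is taken to vary as the LPS and arctigenin libraries do. The SE is |log2 fold change| divided by the root of the F statistic. CPM is scaled by TMM. Transcripts were fitted likewise over 35464 rows. Simulated counts with known changes were used to test the scripts, and for transcripts the share of changes to be recovered was set lower after the first run fell short of the mark kept for genes. Lengths came from GENCODE M1 for 120 components, and promoters from RefSeq GRCm38.p6.

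The components and lists were chosen with earlier results of these data known. Named genes were, per class and comparison, up to 4 called with the largest change, and a fixed set of well-known splicing genes; in other lists, up to 3. Tra2a, Tra2b, U2surp, Lsm5, the isoforms described and the promoter motifs fall outside this rule and were chosen after their values were seen. Single-gene results of 2 components are not reported here, though the genes stay in every count. The 13 alternatives were RLE, library total and upper quartile scaling, no count filter, DESeq2 1.42.0, limma-voom 3.58.1, curated transcripts only, a length and GC correction, a replicate block, and leaving out each of 4 replicates.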

Additional observations from a re-analysis of the deposited data

How the results depend on the processing

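The count of components lower with LPS (72) was 46 with curated transcripts only and ran from 52 to 74 with a replicate left out. That of components higher with LPS (11) was 3 under library totals, 3 under upper quartile scaling and 4 with curated transcripts only, and ran from 5 to 13 with a replicate left out, falling to 6 without LPS replicate 1 and 5 without LPS replicate 2. For LPS with arctigenin against LPS the 78 higher ran from 59 to 79 with a replicate left out, and the 6 lower became 3 with curated transcripts only and ran from 3 to 7, with 3 without LPS replicate 2. For LPS with arctigenin against vector the 40 higher were 19 under library totals, 25 under upper quartile scaling and 24 with curated transcripts only, and the 32 lower were 62 under library totals and 21 with curated transcripts only. The cause was not tested. Curated transcripts leave fewer counts per gene by construction, and the part of this in the lost calls was not tested either. Over all genes, 2887 were lower and 3137 higher with LPS in the main fit, against 1316 and 1895 with curated transcripts only. The loss of calls with curated transcripts was therefore not limited to the components. All-gene calls for LPS against vector were also fewer in both directions when an LPS library was dropped, and more when an arctigenin library was. Transcript calls (34, 13 and 41) ran from 0 to 28, 0 to 0 and 3 to 21 with a replicate left out.

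The replicate numbers shared by LPS and LPS with arctigenin do not pair the samples by the labels. The correlation of replicate differences was -0.008 over all genes and 0.327 over the components, from only 2 pairs. With the replicate block, component counts were 11 higher and 73 lower, 76 higher and 6 lower, and 40 higher and 33 lower in the 3 comparisons, 3 single-gene calls were lost, and transcript calls were 12, 0 and 23. At an unadjusted p under 0.05 the transcripts with the block numbered 101, 97 and 96 (17.3%, 13.5% and 19.7% of all transcripts) in edgeR, the only tool run on them.

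Over 276 single-gene values, each under the alternatives that could give one, 3166 results kept direction and call, 319 lost the call, 43 gained one and 60 changed sign. In 9 of the 60 the value had been called. Those that changed sign were the following log2 fold changes. Under library totals they were Hnrnpa3 -0.016, Hnrnpk -0.25, Pcbp1 -0.16, Prpf4 -0.17, Sf3b2 -0.15, Snrnp200 -0.026 and Snw1 -0.025 for LPS against vector, and Eftud2 -0.23, Ppie -0.076, Sf3b5 -0.25, Snrnp70 -0.033, Snrpa -0.039, Snrpc -0.0017, Snrpe -0.22, U2af1l4 -0.072 and U2af2 -0.11 for LPS with arctigenin against vector. Under upper quartile scaling they were Hnrnpk -0.15, Pcbp1 -0.064, Prpf4 -0.075 and Sf3b2 -0.059 for LPS against vector, and Eftud2 -0.10, Sf3b5 -0.12 and Snrpe -0.096 for LPS with arctigenin against vector. With DESeq2 they were Hnrnpk -0.0040 for LPS against vector. With RLE factors they were Hnrnpk -0.0040 for LPS against vector. With curated transcripts only they were Isy1 0.0089 and Prpf40b -7.04 for LPS against vector, Prpf40b 4.51 and Sf3a2 0.16 for LPS with arctigenin against LPS, and Hnrnpc -0.022, Hnrnpu 0.024, Prpf3 0.033, Prpf40b -2.53 and Srsf7 0.17 for LPS with arctigenin against vector. After the length and GC correction they were Hnrnpk -0.019, Isy1 0.096 and Prpf4 -0.12 for LPS against vector, Hnrnpa1 -0.025 and Srsf10 0.0049 for LPS with arctigenin against LPS, and Prpf3 0.074, Sf3b5 -0.071 and Snrpe -0.20 for LPS with arctigenin against vector. Without a count filter they were Isy1 0.0036 for LPS against vector, and Sf3a2 0.0031 and Srsf10 0.0044 for LPS with arctigenin against LPS. With a replicate left out, values for LPS against vector ran for Hnrnpk from -0.0063 to 0.020, Isy1 from -0.091 to 0.086 and Prpf4 from -0.0014 to 0.17. With a replicate left out, values for LPS with arctigenin against LPS ran for Hnrnpa1 from -0.017 to 0.13, Ppil1 from -0.11 to 0.33, Prpf40b from -0.093 to 0.016, Sf3a2 from -0.071 to 0.072 and Srsf10 from -0.018 to 0.018. With a replicate left out, values for LPS with arctigenin against vector ran for Alyref from -0.068 to 0.0090, Alyref2 from -0.72 to 0.031, Hnrnpu from -0.074 to 0.0063, Prpf3 from -0.055 to 0.022 and Sf3b5 from -0.0087 to 0.097.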
